A study of Mus musculus with 24 samples.

Results

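The 10 transcription factors studied here divide the embryonic neural tube into dorsal, intermediate and ventral progenitor domains, and they were followed through a neural differentiation of mouse embryonic stem cells (ESCs). The members, Pax3, Pax7, Olig3, Dbx1, Dbx2, Irx3, Pax6, Nkx6-1, Olig2 and Nkx2-2, were taken by gene symbol from the expression table, which held all 10 among 21553 genes with counts. In cells with a slow RNA polymerase II, 9 of the 10 were higher than in wild-type cells by the neural progenitor stage. Of all genes tested, 29.3% were called higher at that stage (FDR under 0.05). Olig2 and Nkx2-2 held only 7 and 12 summed counts in wild-type progenitors. Their calls there were lost when some single libraries were left out. In neurons derived from the progenitors the set came apart, with the 7 dorsal and intermediate factors higher and the 3 ventral factors lower. There 23.4% of all genes were called higher and 28.4% lower. Of the 3 falls, only that of Olig2 kept its call in every alternative fit.

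In the neural tube, Sonic hedgehog (Shh) from the notochord and floor plate and bone morphogenetic proteins (BMPs) and Wnts from the roof plate act as opposing signals. Pax3 and Pax7 mark the dorsal tube, and Olig3 marks its most dorsal progenitors. Dbx1, Dbx2, Irx3 and Pax6 are held back by strong hedgehog signalling and occupy intermediate positions, whereas Nkx6-1, Olig2 and Nkx2-2 are switched on by it in ventral progenitors of motor neurons and V3 interneurons. Neighbouring domains are kept apart by mutual repression, classically between Pax6 and Nkx2-2, Dbx2 and Nkx6-1, and Irx3 and Olig2.

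Poly(A)+ RNA had been sequenced from WT cells and from slow/slow cells, which are homozygous for the R749H substitution in the largest RNA polymerase II subunit (Polr2a) that lowers the elongation rate. Each genotype was sampled as ESCs kept in 2i medium with LIF, as neural progenitor cells (NPCs) at day 7 in N2B27 medium, as PSA-NCAM+ cells purified on beads at day 10, and as neurons grown for 14 days after replating at day 7 with ascorbic acid and cAMP. There were 3 libraries in each of the 8 groups, from separate differentiation experiments. The slow/slow line was made by targeting both alleles of E14 ESCs in succession, so the substitution and other differences of a derived line cannot be told apart. Differentiation was started at 10000 WT but 30000 slow/slow cells per cm2, and density and genotype cannot be told apart after the ESC stage. In bulk RNA, fewer cells of a type and less RNA per cell cannot be told apart either.

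The promoters of 3 members are shown because these genes gave the widest genotype differences in NPCs (Olig3), PSA-NCAM+ cells (Dbx1 after Olig3) and, downwards, neurons (Olig2), a choice made after their values were seen. Each line gives the 250 bases before the RefSeq start on GRCm38.p6, read along the gene, with TATAAA and CCAAT (on either strand, the latter also as ATTGG) in capitals. The Olig3 window is chr10:19356289-19356538 (plus strand), the Dbx1 window chr7:49636836-49637085 (minus strand) and the Olig2 window chr16:91225300-91225549 (plus strand).
Olig3: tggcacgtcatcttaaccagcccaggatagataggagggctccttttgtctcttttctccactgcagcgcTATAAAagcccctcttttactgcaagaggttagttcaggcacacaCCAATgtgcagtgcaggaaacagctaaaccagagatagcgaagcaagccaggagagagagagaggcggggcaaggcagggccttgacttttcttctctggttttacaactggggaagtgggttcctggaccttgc
Dbx1: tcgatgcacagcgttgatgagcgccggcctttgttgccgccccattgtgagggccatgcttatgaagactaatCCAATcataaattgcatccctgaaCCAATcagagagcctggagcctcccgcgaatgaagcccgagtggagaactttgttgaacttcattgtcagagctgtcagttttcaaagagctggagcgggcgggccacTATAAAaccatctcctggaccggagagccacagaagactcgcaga
Olig2: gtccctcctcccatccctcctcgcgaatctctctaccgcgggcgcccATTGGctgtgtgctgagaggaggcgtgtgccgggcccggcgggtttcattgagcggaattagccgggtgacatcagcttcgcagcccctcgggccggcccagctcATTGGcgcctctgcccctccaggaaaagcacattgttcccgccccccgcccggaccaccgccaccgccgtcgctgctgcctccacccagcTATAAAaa

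Windows were listed for 9 of the 10 members, with 2 for Pax6. TATAAA lay in the windows of these 3 members and of no other, against 12.4% of all 32851 windows. CCAAT lay in 4 members' windows (the same 3 and Pax6), against 33.8% of all windows. The GLI-binding sequence GACCACCCA, through which the hedgehog pathway acts on its targets, was searched on both strands and lay in 0 of the members' 10 windows and in 0.225% of all windows. These matches are descriptions of the letters and were shared by genes that moved in opposite directions in neurons.

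The libraries held between 32974432 and 104466886 counts, and all 10 members were among the 16627 genes that passed the filter on low counts. The pluripotency markers (6 of 6 with counts) summed to between 5547 and 6457 CPM (counts scaled by library depth) over the ESC libraries and to between 87.2 and 137.7 CPM over the neuron libraries. Neuron markers (6 with counts) summed to between 3430 and 3740 CPM in WT neurons and between 2739 and 2905 CPM in slow/slow neurons. Neural progenitor markers (5 with counts) summed to between 1086 and 1294 CPM in WT and between 1350 and 1530 CPM in slow/slow neurons, above the 353 to 367 CPM of WT and 383 to 418 CPM of slow/slow NPCs. In ESCs they summed to between 431 and 486 CPM, so this list did not set NPCs apart from ESCs. Pluripotency markers still summed to between 2193 and 2265 CPM in WT NPCs, above the 1427 to 1638 CPM in slow/slow NPCs, and the part of this in the members' differences was not tested. Replicate 1 of both PSA-NCAM+ groups stood apart from the other 2 libraries of its group in several members. Without it in both genotypes, an alternative chosen after seeing the data, the same 9 members were called between PSA-NCAM+ genotypes, with differences of 2.45 for Pax3, 2.505 for Pax7, 3.99 for Pax6, 5.38 for Dbx1, 1.81 for Dbx2, 1.61 for Irx3, 1.66 for Nkx6-1, 3.46 for Olig2 and 5.78 for Olig3, each group then holding 2 libraries.

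**Figure D1:**
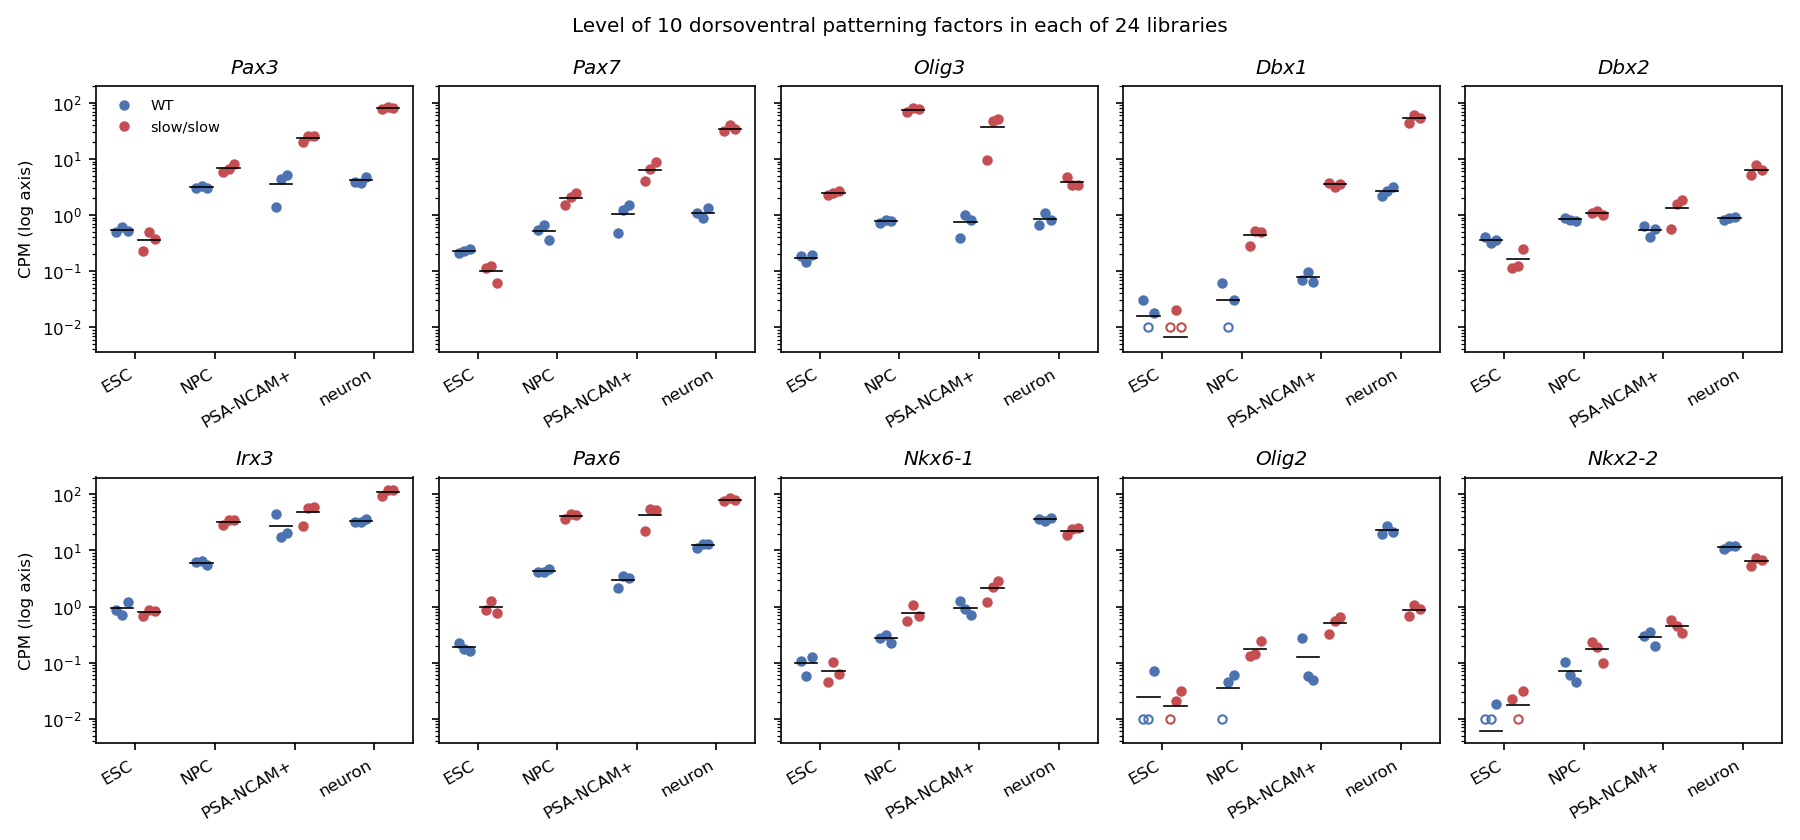
CPM on a log axis of the 10 factors in each of the 24 libraries, by stage, for WT (blue) and slow/slow (red) cells. Points are libraries, black lines are group means, and open circles mark libraries with 0 counts. In neurons the 3 slow/slow points lie above the 3 WT points for 7 factors and below them for Nkx6-1, Olig2 and Nkx2-2.

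Levels of different genes were compared per length, with the authors' mean RPKM (reads scaled by gene length and library depth) of each group. In WT neurons the order was led by Nkx6-1 (20.6), Irx3 (15.4), Olig2 (9.53) and Nkx2-2 (5.05), with Pax6 at 4.81 and Pax3 at 1.25. In slow/slow neurons it was led by Irx3 (55.7), Pax6 (34.7), Dbx1 (29.0) and Pax3 (26.9), and Olig2 came last at 0.407. Olig3 led the slow/slow ESCs (1.13) and NPCs (38.2), whereas Irx3 led both WT groups (0.397 and 2.89). These columns hold no spread, so the order of close neighbours, such as Nkx2-2 and Pax6 in WT neurons, was not tested.

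Pax3 (ENSMUSG00000004872; GRCm38 chr1:78101267-78197134, minus strand), which drives dorsal progenitor identity, stood at 3.08, 3.34 and 3.03 CPM in WT NPCs and at 5.93, 6.75 and 8.01 CPM in slow/slow NPCs. In neurons the WT libraries stayed at 3.85, 3.74 and 4.85 CPM, while the slow/slow libraries reached 76.8, 85.8 and 81.1 CPM. The genotypes did not overlap at either stage, and the gap widened with differentiation. By edgeR's quasi-likelihood test, Pax3 was higher in slow/slow cells by 1.13 ± 0.29 (log2, SE; FDR = 0.0025) in NPCs, 2.75 ± 0.29 (FDR = 2.0e-07) in PSA-NCAM+ cells and 4.29 ± 0.31 (FDR = 1.2e-09), a 19.5-fold difference, in neurons. In ESCs the difference was -0.55 ± 0.44 (FDR = 0.34).

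Pax7 (ENSMUSG00000028736; chr4:139737062-139833528, minus strand), the paralog of Pax3, is needed with it in the dorsal tube. It read 0.541, 0.664 and 0.360 CPM in WT NPCs against 1.51, 2.10 and 2.44 CPM in slow/slow NPCs, and 1.07, 0.883 and 1.34 CPM in WT neurons against 31.1, 40.0 and 33.5 CPM in slow/slow neurons. Again no slow/slow value fell within the WT range. The differences were 1.94 ± 0.35 (FDR = 1.1e-04) in NPCs, 2.64 ± 0.33 (FDR = 1.4e-06) in PSA-NCAM+ cells and 4.98 ± 0.35 (FDR = 9.4e-10) in neurons, the widest upward difference of any member at that stage by edgeR's fit.

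Olig3 (ENSMUSG00000045591; chr10:19356533-19358604, plus strand), a bHLH factor of the most dorsal progenitors, took another course. It was already apart in ESCs, at 0.182, 0.143 and 0.198 CPM in WT and 2.28, 2.52 and 2.69 CPM in slow/slow cells, a difference of 3.79 ± 0.56 (FDR = 1.9e-05). In NPCs the WT libraries read 0.707, 0.800 and 0.795 CPM and the slow/slow libraries 67.8, 81.4 and 76.9 CPM. Olig3 then declined in slow/slow cells as Pax3 and Pax7 rose, to 4.72, 3.46 and 3.40 CPM in neurons, a fall of 4.28 ± 0.42 from NPCs (FDR = 1.3e-08) by edgeR, and remained above the 0.660, 1.09 and 0.828 CPM of WT neurons by 2.17 ± 0.42 (FDR = 2.4e-04). In PSA-NCAM+ cells replicate 1 of slow/slow cells read 9.70 CPM against 48.3 and 51.3 CPM in the other 2 libraries, and the WT libraries lay between 0.393 and 1.01 CPM. The step down of slow/slow cells from NPCs to PSA-NCAM+ cells, -1.05 ± 0.37 (FDR = 0.027), was lost without slow/slow NPC replicate 2 (FDR = 0.078) or replicate 3 (FDR = 0.064), and when only these 2 groups were fitted (FDR = 0.22). Without PSA-NCAM+ replicate 1 of both genotypes it was -0.60 (FDR = 5.8e-05).

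Among the intermediate factors, Pax6 (ENSMUSG00000027168; chr2:105668900-105697364, plus strand) is a central regulator of neural progenitors and a repressor of Nkx2-2. It differed between the genotypes at every stage. WT ESCs read 0.228, 0.172 and 0.162 CPM and slow/slow ESCs 0.882, 1.27 and 0.774 CPM. The difference was 2.36 ± 0.40 (FDR = 1.0e-04) in ESCs, 3.25 ± 0.26 (FDR = 4.4e-09) in NPCs and 3.87 ± 0.26 (FDR = 5.2e-10) in PSA-NCAM+ cells. Its change from ESCs to NPCs, tested in edgeR as an interaction of genotype and stage, did not pass (0.89 ± 0.51, FDR = 0.23). In neurons the WT values of 11.0, 12.8 and 13.1 CPM were far below the slow/slow values of 75.9, 86.9 and 79.8 CPM, a difference of 2.72 ± 0.25 (FDR = 2.3e-08). This gene overlaps the antisense transcript Pax6os1, and as the use of strand in counting is not given in the sources used here, a share of its counts could come from that transcript. The same uncertainty holds for Irx3 (Irx3os) and Nkx2-2 (Nkx2-2os and 6430503K07Rik).

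Irx3 (ENSMUSG00000031734; chr8:91798525-91802067, minus strand), an Iroquois factor that represses Olig2, read 6.26, 6.40 and 5.50 CPM in WT NPCs and 28.3, 34.5 and 34.6 CPM in slow/slow NPCs, 2.42 ± 0.30 higher (FDR = 1.4e-06). In neurons it read 32.6, 32.4 and 36.2 CPM in WT and 92.5, 118 and 122 CPM in slow/slow cells, 1.72 ± 0.28 higher (FDR = 4.3e-05). The groups overlapped only in ESCs and in PSA-NCAM+ cells, where WT replicate 1 at 45.4 CPM exceeded slow/slow replicate 1 at 27.2 CPM. There the difference was 0.78 ± 0.28 (FDR = 0.022), and it was no longer called when any 1 of 4 libraries was left out (WT or slow/slow replicate 2 or 3, FDR between 0.080 and 0.096) or when only the PSA-NCAM+ samples were fitted, with the replicate block (FDR = 0.23) or without it (FDR = 0.22). Without replicate 1 of both genotypes, an alternative chosen after seeing the data, it was 1.61 (FDR = 4.3e-11). Genes on chromosome 8 had a median genotype difference between 0.44 and 0.49 at the 4 stages, against medians between -0.06 and 0.01 over all genes, and the part of this shift in the Irx3 values was not tested.

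Dbx1 (ENSMUSG00000030507; chr7:49631499-49636849, minus strand) specifies V0 interneurons from the middle of the tube and was almost silent in WT cells before the neuron stage. Its summed counts were 3 in WT and 1 in slow/slow ESCs, at or under the detection floor of 3 counts. Counts in NPCs were 3, 0 and 2 in WT and 22, 22 and 20 in slow/slow libraries, a ratio of counts per total of 14.0 (95% exact interval 5.71 to 44.7, counting error only). In PSA-NCAM+ cells 0.0694, 0.0973 and 0.0652 CPM in WT stood against 3.74, 3.15 and 3.65 CPM in slow/slow cells, and in neurons 2.21, 2.70 and 3.20 CPM against 44.1, 61.9 and 53.6 CPM. edgeR gave 5.50 ± 0.34 (FDR = 1.7e-10) and 4.30 ± 0.26 (FDR = 1.2e-10) at these 2 stages, with no overlap of the genotypes.

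Dbx2 (ENSMUSG00000045608; chr15:95623563-95655960, minus strand), the partner of Dbx1 that opposes Nkx6-1, differed late. In NPCs it read 0.874, 0.830 and 0.795 CPM in WT and 1.10, 1.19 and 0.986 CPM in slow/slow cells, and although these values did not overlap the difference of 0.39 ± 0.30 did not pass (FDR = 0.28). In PSA-NCAM+ cells the values overlapped, with slow/slow replicate 1 at 0.572 CPM inside the WT range of 0.408 to 0.636 CPM, and the difference was 1.32 ± 0.30 (FDR = 9.6e-04). That call was lost when only the PSA-NCAM+ samples were fitted (FDR = 0.086), also with the replicate block (FDR = 0.099). In neurons 0.813, 0.899 and 0.924 CPM in WT stood against 5.23, 7.68 and 6.47 CPM, 2.87 ± 0.30 higher (FDR = 1.5e-07). In ESCs Dbx2 was lower by 1.24 ± 0.41 on the log2 scale (FDR = 0.021), with 58 summed counts in WT and 19 in slow/slow cells, and the call was lost without WT ESC replicate 1 (FDR = 0.071) or slow/slow ESC replicate 1 (FDR = 0.095) or 2 (FDR = 0.094). Genes on chromosome 15 had a median genotype difference between -0.60 and -0.56 at the first 3 stages and of -0.08 at the neuron stage, and its part in the Dbx2 values was not tested.

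The ventral factors behaved alike in WT cells, where all 3 were scarce until the neuron stage. Nkx6-1 (ENSMUSG00000035187; chr5:101658139-101664996, minus strand), which permits motor neuron and V2 and V3 interneuron fates, read 0.270, 0.317 and 0.225 CPM in WT NPCs and 0.543, 1.07 and 0.690 CPM in slow/slow NPCs, 1.47 ± 0.33 higher (FDR = 9.2e-04). In neurons the order turned, with 35.7, 33.6 and 37.8 CPM in WT and 18.9, 24.3 and 24.7 CPM in slow/slow cells. The values did not overlap, and the difference of -0.66 ± 0.24 (FDR = 0.025) lay close to the threshold. It was no longer called with upper-quartile scaling (-0.52, FDR = 0.073), nor without WT neuron replicate 1 (FDR = 0.052) or 3 (FDR = 0.069) or slow/slow neuron replicate 1 (FDR = 0.10).

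Olig2 (ENSMUSG00000039830; chr16:91225457-91228677, plus strand), the bHLH factor of motor neuron and oligodendrocyte progenitors, showed the widest downward difference in neurons. WT NPCs held 0, 3 and 4 counts and slow/slow NPCs 10, 6 and 10, a ratio of 4.07 (95% exact interval 1.72 to 11.1). WT neurons reached 19.4, 27.5 and 21.5 CPM, whereas slow/slow neurons stayed at 0.685, 1.06 and 0.904 CPM. Every WT neuron library was thus far above every slow/slow one, and edgeR gave -4.69 ± 0.44 (FDR = 4.1e-08), a 25.8-fold lower level. The NPC call (2.06 ± 0.79, FDR = 0.032) was lost without WT NPC replicate 1 (FDR = 0.093) or 2 (FDR = 0.060) or slow/slow NPC replicate 3 (FDR = 0.10). In PSA-NCAM+ cells Olig2 was 1.87 ± 0.51 higher in slow/slow cells (FDR = 0.0042), or 3.46 (FDR = 5.7e-06) without replicate 1 of both genotypes. The call was lost when only the PSA-NCAM+ samples were fitted (1.93, FDR = 0.082), also with the replicate block (2.09, FDR = 0.077). WT replicate 1 read 0.278 CPM against 0.0584 and 0.0489 CPM in the other WT libraries.

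Nkx2-2 (ENSMUSG00000027434; chr2:147177546-147194243, minus strand), the factor of the most ventral V3 progenitors, held 5, 4 and 3 counts in WT NPCs and 18, 8 and 4 in slow/slow NPCs, a ratio of 2.74 (95% exact interval 1.36 to 5.88). The NPC difference of 1.42 ± 0.45 (FDR = 0.011) was lost without WT NPC replicate 3 (FDR = 0.055) or slow/slow NPC replicate 1 (FDR = 0.095). In neurons it read 10.4, 11.9 and 11.8 CPM in WT and 5.29, 7.42 and 6.82 CPM in slow/slow cells, a difference of -0.80 ± 0.24 (FDR = 0.0096) that was lost without slow/slow neuron replicate 1 (FDR = 0.057). Nkx2-2 was the only member not called in PSA-NCAM+ cells (0.66 ± 0.31, FDR = 0.077), although it passed without WT replicate 2 (FDR = 0.049) or slow/slow replicate 3 (FDR = 0.032).

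**Figure D2:**
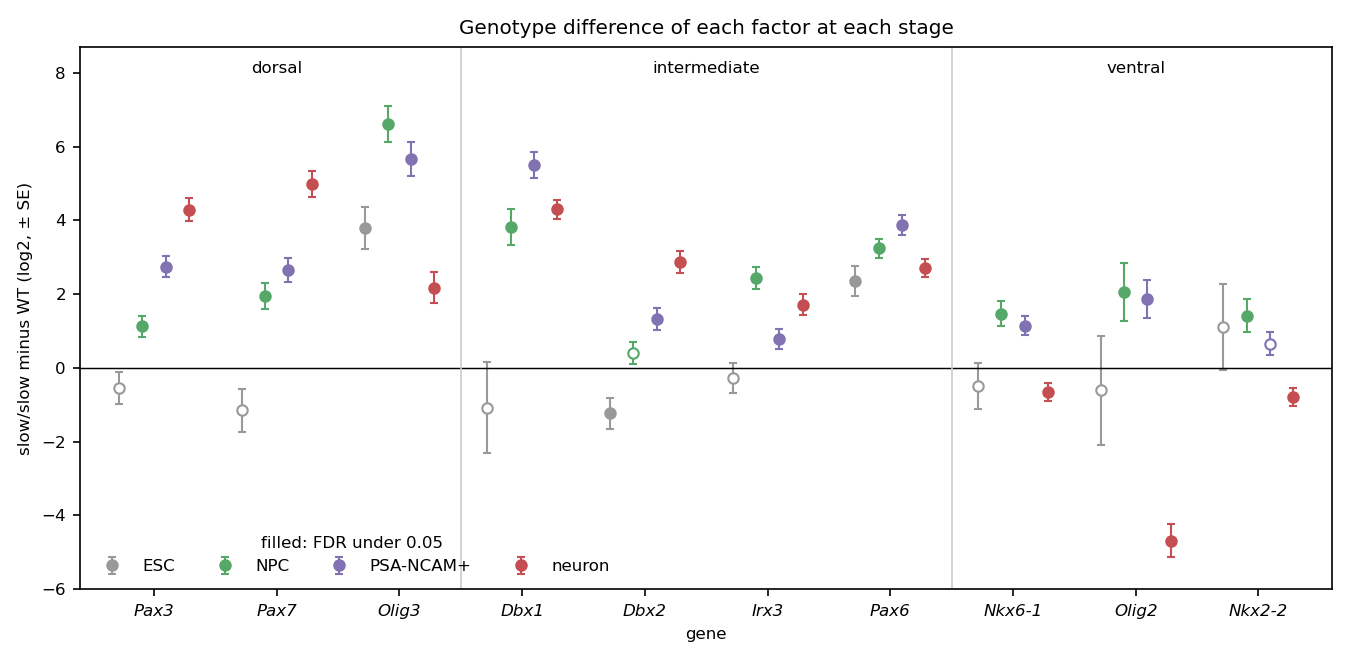
Fitted genotype difference (slow/slow minus WT, log2, with SE) of each factor in ESCs (grey), NPCs (green), PSA-NCAM+ cells (purple) and neurons (red). Filled points passed an FDR of 0.05 and open points did not. In neurons Pax7 lies highest at 4.98 and Olig2 lowest at -4.69.

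Counted over the set, 3 members were called in ESCs (Pax6 and Olig3 higher, Dbx2 lower), where 40.4% of all genes tested were called. In NPCs 9 were higher and 0 lower, against 56.7% of all genes called in either direction and 29.3% called higher. In PSA-NCAM+ cells 9 were higher, against 56.7% called and 28.6% higher, but only 5 when the PSA-NCAM+ samples were fitted alone, with the replicate block or without it, the calls of Dbx2, Irx3, Nkx6-1 and Olig2 being lost. In neurons 7 were higher and 3 lower, against 51.9% of all genes called, 23.4% higher and 28.4% lower. The median difference of the 10 members was 2.00 in NPCs, against 0.01 over all genes. Of all genes called in neurons 45.2% were higher, or 59.2% with upper-quartile scaling, which moved the median of all genes from -0.06 to 0.08.

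The ratio of opposing factors within a library does not depend on depth or scaling. In WT neurons the log2 ratio of Pax6 to Nkx2-2 counts was 0.08, 0.11 and 0.15, and in slow/slow neurons 3.84, 3.55 and 3.55. The ratio of Dbx2 to Nkx6-1 moved from -5.34 ± 0.12 (SD, n = 3) to -1.82 ± 0.14, and that of Irx3 to Olig2 from 0.58 ± 0.29 to 6.98 ± 0.16. In each pair every slow/slow neuron library lay on the side of the more dorsal factor relative to every WT library (two-sided exact permutation p = 0.10 for each, the smallest that 3 against 3 allows). This separation was already given by the single values above, since neither factor of any pair overlapped between the genotypes in neurons. The ratios thus describe its size and are not a further test. In NPCs only Dbx2 over Nkx6-1 had more than 3 counts of both genes in every library, and there the ratio was lower in slow/slow cells, at 0.56 ± 0.43 against 1.63 ± 0.22 (exact permutation p = 0.10). In PSA-NCAM+ cells this ratio differed by 0.08, with overlapping values (exact permutation p = 0.90), while Pax6 over Nkx2-2 was higher by 3.08 (exact permutation p = 0.10).

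**Figure D3:**
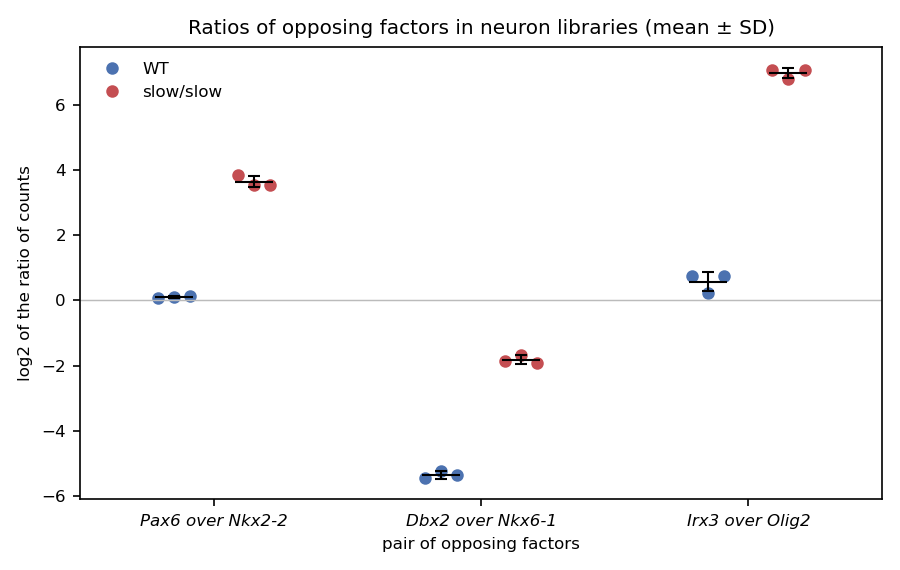
Log2 ratio of counts of 3 pairs of opposing factors in each WT (blue) and slow/slow (red) neuron library, with mean and SD. The slow/slow points lie 3.53, 3.53 and 6.41 log2 units above the WT points on average.

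The steps between stages show when each genotype acquired these factors. From ESCs to NPCs 8 members rose in WT cells, where 65.6% of all genes were called, and all 10 rose in slow/slow cells, against 62.3%. Dbx1 and Olig2 were the 2 that did not pass in WT cells, and the Pax7 step (1.17 ± 0.43, FDR = 0.022) was lost without WT ESC replicate 1 (FDR = 0.072) or WT NPC replicate 2 (FDR = 0.10). From NPCs to PSA-NCAM+ cells 4 members rose in WT cells (Pax7, Irx3, Nkx6-1 and Nkx2-2, against 41.3% of genes called) or 7 changed without replicate 1 of both genotypes. The Pax7 step (0.99 ± 0.36, FDR = 0.031) was lost when WT NPC replicate 1 or 3 or WT PSA-NCAM+ replicate 2 or 3 was left out (FDR between 0.060 and 0.18). Pax6 fell by 0.56 on the log2 scale in WT cells with the replicate block (FDR = 0.039) but not without it (-0.54 ± 0.25, FDR = 0.091). In slow/slow cells 6 members rose and Olig3 fell over this step, against 42.3% of genes called, or 4 were called when only these 2 groups were fitted and 10 without slow/slow PSA-NCAM+ replicate 1. The Olig2 step (1.64 ± 0.53, FDR = 0.017) was lost without slow/slow NPC replicate 1 (FDR = 0.085) or 2 (FDR = 0.052).

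From NPCs to neurons 7 members rose in WT cells, where 80.2% of all genes were called, and 9 rose and 1 fell in slow/slow cells, against 75% of genes called. The ventral factors rose most in WT cells, by 7.03 ± 0.33 for Nkx6-1, 7.36 ± 0.37 for Nkx2-2 and 9.14 ± 0.61 for Olig2. The Pax7 step (1.08 ± 0.35, FDR = 0.0081) was lost without WT NPC replicate 3 (FDR = 0.0501). Over the same step Pax3 (0.40 ± 0.29, FDR = 0.20), Dbx2 (0.08 ± 0.30, FDR = 0.81) and Olig3 (0.15 ± 0.46, FDR = 0.76) did not pass in WT cells. In slow/slow cells Pax3 rose by 3.56 ± 0.30, Pax7 by 4.12 ± 0.34 and Dbx1 by 6.99 ± 0.31, whereas Olig2 rose by only 2.39 ± 0.52.

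Whether the genotype difference itself changed between stages was tested with an interaction term. From ESCs to NPCs it moved up for 7 members (Pax3, Pax7, Olig3, Dbx1, Dbx2, Irx3 and Nkx6-1), against 24.6% of all genes called. Only 3 of these calls were left without WT ESC replicate 1 and 4 without slow/slow ESC replicate 1. For Dbx2 the move was from -1.24 in ESCs to 0.39 in NPCs, where the genotypes were not called different. The Nkx6-1 term (1.96, FDR = 0.046) was lost with no filter on low counts (FDR = 0.055) and without any of 8 libraries in turn (WT ESC replicate 1 or 3, slow/slow ESC replicate 1 or 3, WT NPC replicate 1 or 3, slow/slow NPC replicate 2 or 3, FDR between 0.055 and 0.12). Of the 7 terms, those of Pax7 and Irx3 kept their call in every alternative run, and those of Pax3, Dbx1, Dbx2 and Olig3 each lost it without at least 1 of the ESC or NPC libraries. From NPCs to neurons the genotype difference moved up for Pax3, Pax7 and Dbx2 and down for Olig3, Nkx6-1, Nkx2-2 and Olig2, against 55.1% of all genes called. For Pax6 (-0.53 ± 0.33, FDR = 0.18), Irx3 (-0.71 ± 0.40, FDR = 0.14) and Dbx1 (0.48 ± 0.88, FDR = 0.67) this term did not pass. Both interaction terms use the NPC libraries, as do both sets of stage steps above.

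The members were also compared across the 24 libraries. Pearson correlations of log2 CPM, given as descriptions since the points share stages and lines, were 0.979 between Pax3 and Pax7 and 0.983 between Nkx6-1 and Nkx2-2. Olig2 was closest to these ventral partners (0.909 and 0.900) and Olig3 was closest to Pax6 (0.734), with values of 0.517 and 0.492 to its dorsal partners Pax3 and Pax7. Dbx2 (0.919) and Dbx1 (0.914) were each closest to Pax7. Dbx1 was also closer to Pax3 (0.888) and Nkx6-1 (0.880) than to Dbx2 (0.855), Pax6 (0.830) or Irx3 (0.825). Likeness thus did not follow position for every member. Over all genes, the nearest to Pax3 after Pax7 were Boc, a hedgehog co-receptor (0.968), and Igdcc3 (0.967), and Boc also followed Pax7 (0.977, ahead of 2310022B05Rik at 0.956) and Dbx2 (0.934). Dbx2 was nearest to Pax8 (0.971) and Lhx3 (0.944), transcription factors of spinal interneurons and motor neurons. Dbx1 was nearest to the Notch target Hes5 (0.982), then Tcf12 (0.977) and Cblb (0.977), and Irx3 to Pcdh18 (0.983), Id2 (0.974) and the hedgehog co-receptor Gas1 (0.972). Pax6 was nearest to Chd7 (0.981), a chromatin remodeller, then A930038C07Rik (0.979) and Cul4a (0.969), and Olig3 to Qser1 (0.968), Cdca7l (0.959) and Fubp1 (0.957). The ventral factors were nearest to genes that rise in neurons, with Ebf3 (0.989), Podxl2 (0.989) and Mark1 (0.989) for Nkx6-1, Acp2 (0.986), Slc36a4 (0.986) and Trp53inp2 (0.985) for Nkx2-2, and Rab6 (0.967), Prkacb (0.963) and Gnb1 (0.958) for Olig2.

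The signals that place these factors were read from lists of pathway genes. Beside the counts of this and the next lists, 29.3% of all genes were called higher and 27.4% lower in NPCs, and 23.4% higher and 28.4% lower in neurons. Of 14 hedgehog pathway genes, 9 were higher and 3 lower in slow/slow neurons (median 0.50, against -0.06 over all genes). Shh itself, near the floor in WT NPCs (5, 0 and 4 counts), reached 144, 157 and 158 CPM in WT neurons but 27.4, 28.5 and 30.7 CPM in slow/slow neurons, -2.41 ± 0.27 (FDR = 4.5e-07). Boc rose most, from 25.0, 30.8 and 32.8 CPM in WT to 138, 156 and 152 CPM in slow/slow neurons (2.33 ± 0.21, FDR = 2.1e-08), followed by Gli3, the main GLI repressor (1.56 ± 0.22, FDR = 7.7e-06). The ligand was thus lower while most of the listed receptors and transducers were higher. In NPCs 9 of the 14 were higher and 1 lower (median 0.75, against 0.01 over all genes), with Shh 3.21 ± 0.62 higher (FDR = 2.2e-04, at 34, 17 and 25 counts), Boc 1.02 ± 0.20 higher (FDR = 3.1e-04) and the hedgehog target Gli1 lower (-0.81 ± 0.10, FDR = 8.5e-07). In neurons, where Shh was lower, Gli1 was higher (0.91 ± 0.10, FDR = 1.7e-07), as was the target Hhip (0.54 ± 0.18, FDR = 0.016), while the target Ptch1 differed by 0.01 ± 0.17 (FDR = 0.96). These 3 neuron values were chosen after they were seen.

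Of 13 BMP pathway genes, 5 were higher and 3 lower in slow/slow neurons and 5 higher and 4 lower in NPCs (medians 0.27 and -0.17), where 51.9% and 56.7% of all genes were called. The BMP targets Id1 (1.91 ± 0.18, FDR = 4.2e-08) and Id2 (1.68 ± 0.14, FDR = 6.6e-09) rose most in neurons, and Bmp6 (-1.45 ± 0.16) and the BMP antagonist Nog (-1.34 ± 0.34) fell most. In NPCs the largest rises were Id2 (1.97 ± 0.14) and the roof plate ligand Gdf7 (1.82 ± 0.27), and the largest falls the antagonist Chrd (-1.58 ± 0.28) and Bmp7 (-1.42 ± 0.17). Of 9 retinoid genes, 6 were higher and 1 lower in NPCs, led by Crabp1 (4.23 ± 0.27) and Crabp2 (2.26 ± 0.25) with a fall of Dhrs3 (-0.59 ± 0.20), and 5 were higher and 1 lower in neurons, led by the retinoic acid-degrading enzyme Cyp26b1 (4.38 ± 0.29) and Crabp2 (1.67 ± 0.24) with a fall of the synthetic enzyme Aldh1a2 (-0.61 ± 0.23).

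Other regional progenitor genes were counted in the same way. Of 14 further dorsal genes, 11 were higher and 2 lower in slow/slow neurons (median 2.06), and 8 higher and 2 lower in NPCs (median 0.98). Wnt1, a dorsal midline ligand, held 10, 7 and 9 counts in WT neurons and 676, 541 and 277 in slow/slow neurons (6.13 ± 0.67, FDR = 2.8e-07), and Ptf1a, which specifies dorsal inhibitory neurons, 5, 1 and 4 against 92, 109 and 60 counts (5.0 ± 0.46, FDR = 3.4e-08). The falls were Wnt3a (-1.54 ± 0.21) and Msx1 (-1.30 ± 0.27) in neurons, and Gsx2 (-1.37 ± 0.36) and Gsx1 (-1.15 ± 0.42) in NPCs, where Wnt1 (3.41 ± 0.71) and Msx3 (3.34 ± 0.28) rose most. Of 12 further intermediate and ventral genes, 6 were higher and 5 lower in neurons (median 0.58). The highest were Prdm12 (4.44 ± 0.32), a factor of the p1 domain, and Neurog3 (3.86 ± 0.50). The lowest were Olig1, the neighbour and paralog of Olig2 (-7.36 ± 0.35, FDR = 5.6e-12), and Shh. Olig1 read 34.9, 46.7 and 33.7 CPM in WT neurons and 0.194, 0.324 and 0.137 CPM in slow/slow neurons, so the Olig1 and Olig2 pair differed in the same direction. In NPCs 6 were higher and 2 lower (median 0.26), with Sp8 (5.48 ± 0.20) and Irx5 (3.67 ± 0.27) rising and Nkx2-1 (-1.99 ± 0.66) and Olig1 (-1.46 ± 0.33) falling.

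**Figure D4:**
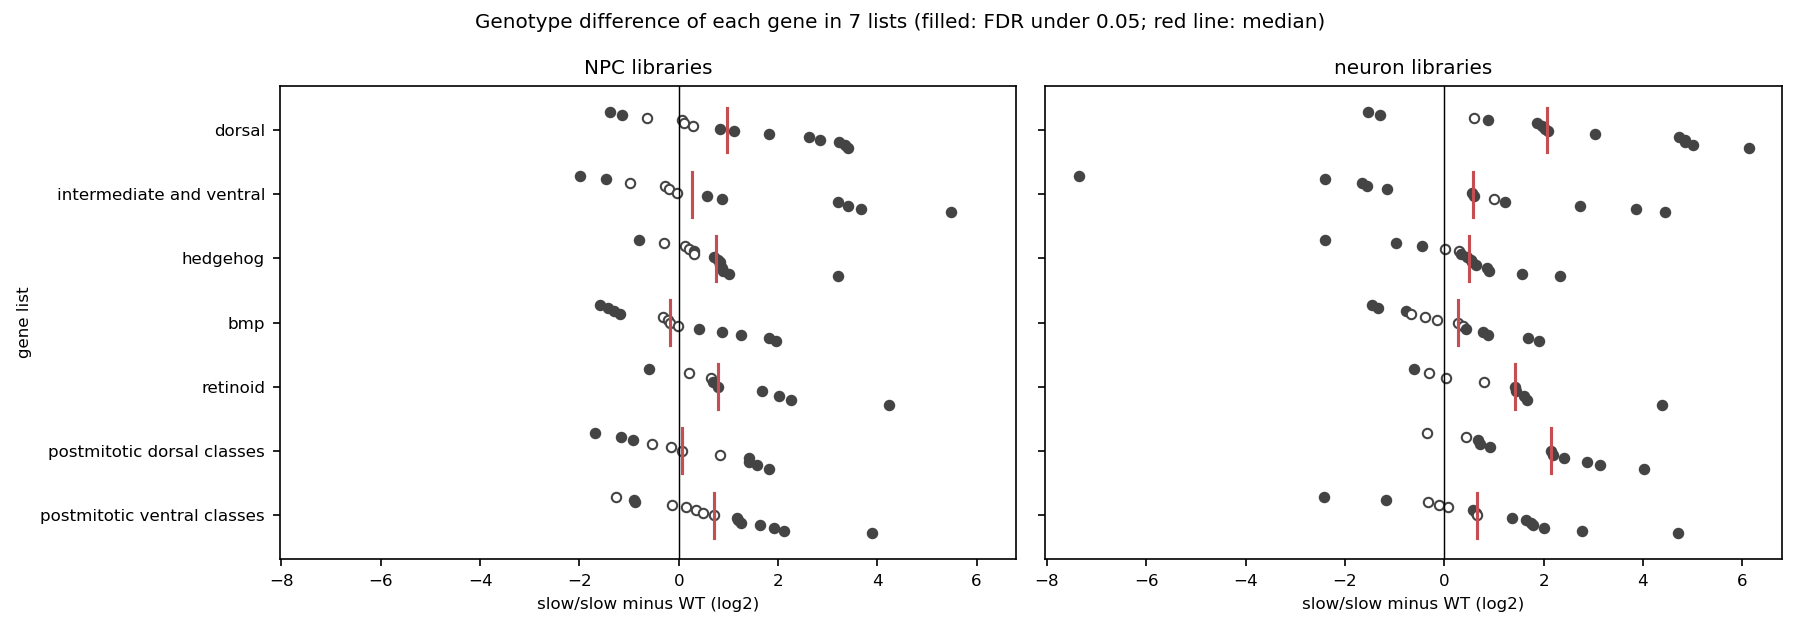
Genotype difference (slow/slow minus WT, log2) of each gene of 7 lists in NPCs (left) and neurons (right). Each point is a gene, filled where FDR was under 0.05, and red lines are list medians, which in neurons reach 2.06 for the dorsal list and 2.16 for the postmitotic dorsal classes.

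Postmitotic neuron classes that arise from these domains were also read. Of 11 genes of dorsal classes, 9 were higher and 0 lower in slow/slow neurons (median 2.16), led by Pax8 (4.02 ± 0.44) and Lhx2 (3.13 ± 0.21), while in NPCs 4 were higher, led by Pou4f1 (1.81 ± 0.31) and Pax2 (1.58 ± 0.54), and 3 lower, led by Lmx1b (-1.68 ± 0.17) and Lbx1 (-1.16 ± 0.45). Of 15 genes of ventral classes, 9 were higher and 2 lower in neurons (median 0.65). Mnx1, the motor neuron homeobox gene, fell from 5.02, 5.09 and 5.35 CPM in WT to 0.983, 0.784 and 1.15 CPM in slow/slow neurons (-2.42 ± 0.25, FDR = 1.4e-07), and Evx1, of V0 interneurons, was lower as well (-1.17 ± 0.28). Evx2, also of V0 interneurons and named after its value was seen, was higher (1.64 ± 0.46, FDR = 0.0061). Lhx3 was among the highest (2.78 ± 0.40). In NPCs 7 of the 15 were higher, led by Sox14 (3.89 ± 0.62) and Tal1 (2.11 ± 0.27), and 2 lower, among them Mnx1 (-0.88 ± 0.27).

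Several members are expressed outside the neural tube, so markers of those cell types were read beside them. Oligodendrocyte lineage markers (7 with counts), the other main site of Olig2, summed to between 22.9 and 24.1 CPM in WT neurons and between 56.5 and 81.7 CPM in slow/slow neurons, the opposite direction to Olig2. Myogenic markers (4 with counts), relevant to Pax3 and Pax7, summed to at most 1.11 CPM in any library. Neural crest markers (4 with counts), relevant to the same genes, summed to between 39.2 and 44.8 CPM in WT neurons and between 93.3 and 100.4 CPM in slow/slow neurons, and their part in the Pax3 and Pax7 differences was not tested. Lens and retina markers (6 with counts), relevant to Pax6, summed to between 0.947 and 1.25 CPM in WT neurons and between 7.24 and 9.86 CPM in slow/slow neurons, and their part in the Pax6 difference was not tested. Of the pancreatic endocrine markers (6 with counts), relevant to Nkx6-1, Nkx2-2 and Pax6, Ins1 was at 0 in all neuron libraries, while the list summed to between 103.7 and 117.3 CPM in WT and between 31.3 and 34.0 CPM in slow/slow neurons, and its part in the ventral differences was not tested. Mesoderm markers (5 with counts) summed to between 43.1 and 48.6 CPM in WT and between 10.2 and 11.4 CPM in slow/slow NPCs, and to between 79.5 and 98.6 CPM in WT and between 13.0 and 14.6 CPM in slow/slow neurons. Astrocyte markers (6 with counts) summed to between 166 and 205 CPM in WT and between 88.2 and 99.7 CPM in slow/slow neurons. Neuron markers were higher in slow/slow NPCs, at 242 to 280 CPM against 89.5 to 97.1 CPM in WT. They were also higher in slow/slow ESCs, at 325 to 385 CPM against 206 to 251 CPM in WT. In both genotypes this list was thus lower in NPCs than in ESCs. The part of these lists in the members' differences was not tested.

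The slow polymerase is best known for its effect on splicing, so splicing events in the members were read from the percent spliced in (PSI), the share of transcripts that include an exon or intron. Of 54 listed events in the members, 0 passed the coverage and balance filter in all 6 ESC libraries, while neurons gave 20 such events, NPCs 8 and PSA-NCAM+ cells 6. The best known is Pax6 exon 5a, which inserts residues into the DNA-binding paired domain. The exon, at GRCm38 chr2:105684751-105684792 (plus strand), is shown in capitals with 30 bases of the exon on each side, from GENCODE M21 transcripts, 5 of whose 11 protein-coding Pax6 transcripts contain it.
Pax6 exon 5a: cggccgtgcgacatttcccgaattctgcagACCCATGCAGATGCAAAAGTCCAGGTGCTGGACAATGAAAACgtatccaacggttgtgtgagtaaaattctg

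The inclusion of exon 5a was 23.3%, 13.7% and 15.2% in WT neurons and 23.6%, 20% and 19.9% in slow/slow neurons, over 37.0 to 456.0 reads per library. The values overlapped, and the means of 17.4% ± 5.20 (SD, n = 3) and 21.2% ± 2.14 (n = 3) differed by 3.79 percentage points (two-sided exact permutation p = 0.30). Slow/slow NPCs read 15.3%, 9.39% and 13.8% and slow/slow PSA-NCAM+ cells 20%, 13.1% and 13.8%. No WT library of either stage passed the filter, with 8 to 18 reads each, so the genotypes were not compared there, and the higher Pax6 level of slow/slow cells came with deeper coverage of the event. A Pax3 intron of 492 bases was retained at 43.2% ± 5.80 in WT and 53.0% ± 0.912 in slow/slow neurons (exact permutation p = 0.10, the smallest possible). A Pax6 exon of 151 bases was included at 91.3% ± 3.33 in WT and 96.9% ± 0.662 in slow/slow NPCs (exact permutation p = 0.10). In the other 18 events that passed in neurons the means differed by at most 1.46 percentage points.

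**Figure D5:**
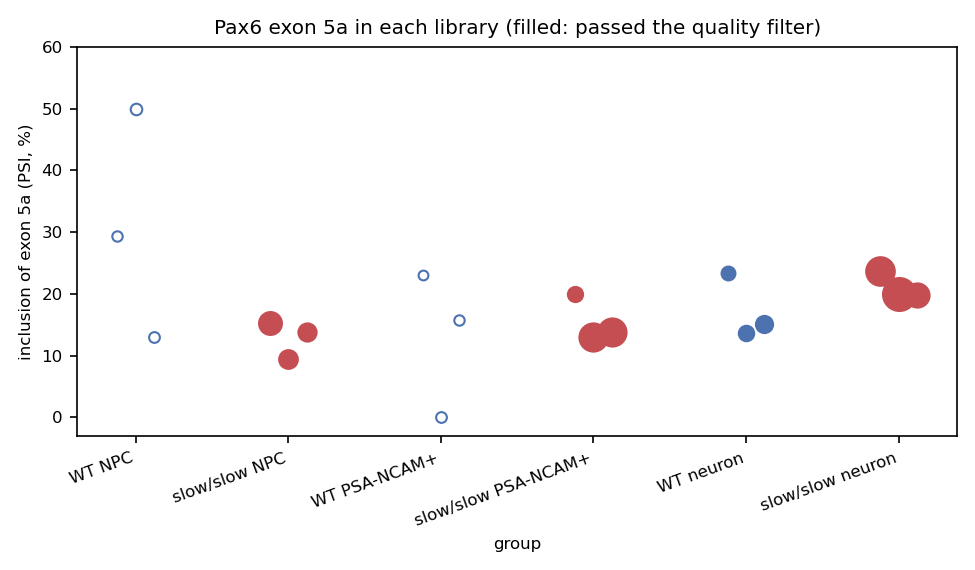
Inclusion (PSI, %) of Pax6 exon 5a in each library of NPCs, PSA-NCAM+ cells and neurons, with WT in blue and slow/slow in red. Larger points rest on more reads, and open points did not pass the coverage filter. The WT and slow/slow neuron points overlap between 19.9% and 23.3%.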

How the data were processed

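The authors mapped reads of stranded poly(A)+ libraries to mm9 and deposited raw counts per gene from vast-tools. The same table held the authors' mean RPKM per group, used as deposited, and their log2 fold changes and FDR, not used. Percent spliced in was also deposited by the authors, and a second splicing table of their estimates and calls was not used. The number of per-sample columns left over was 0.

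Members and lists were chosen with earlier results of these data known. Counts were fitted with edgeR 4.0.16 in R 4.3.3 (filterByExpr, TMM, glmQLFit, glmQLFTest; 8 groups, 24 samples, 16 residual degrees of freedom) after the fit was tested on simulated data, and p-values were adjusted by Benjamini-Hochberg over 16627 genes (calls at FDR under 0.05). CPM is TMM-scaled. DESeq2 1.42.0, other scalings and filters, a replicate block and leaving out libraries were alternatives. All members were named, with at most the 2 largest falls and 2 largest rises of each list in NPCs and neurons and the 3 genes most correlated with each member (log2 CPM, prior count 2). Some genes that this rule names are not reported here.

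Same-numbered samples of both genotypes deviated together only in PSA-NCAM+ cells (correlations 0.540, 0.455 and 0.402, against -0.08 to 0.07 at other stages). The deviations of the 3 libraries of a group are tied to each other, and replicate 1 stood apart in both PSA-NCAM+ groups. These correlations therefore cannot decide whether the numbers pair samples at any stage. Splicing events had to pass the study's quality scores in all 6 libraries of a stage. Event positions in the file are mm9, and printed positions are GRCm38. Sox1, Map2, Tfap2a and Tfap2b were not analysed here.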

Additional observations from a re-analysis of the deposited data

Results flagged for a closer look

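The genotype difference of 9 members differed between stages by the interaction term of the edgeR fit. Over all genes 24.6% were called for the ESC to NPC step and 55.1% for the NPC to neuron step. From ESCs to NPCs the difference moved up by 1.68 (log2) for Pax3, 3.09 for Pax7, 4.89 for Dbx1 and 1.63 for Dbx2. It moved up by 2.70 for Irx3, 1.96 for Nkx6-1 and 2.82 for Olig3. The Dbx1 value rests on ESC groups at or under the floor of 3 counts, so its size depends on the prior count. The Nkx6-1 call over this step was lost in several alternatives. From NPCs to neurons the difference grew by 3.16 for Pax3, 3.04 for Pax7 and 2.48 for Dbx2. It moved by -2.13 for Nkx6-1, -2.22 for Nkx2-2, -6.75 for Olig2 and -4.44 for Olig3. For Nkx6-1, Nkx2-2 and Olig2 the fitted sign turned, from higher in slow/slow NPCs to lower in slow/slow neurons, while Olig3 stayed higher. In NPCs Nkx2-2 held only 12 summed counts in WT and 30 in slow/slow cells, and Olig2 held 7 and 26. The NPC calls of these 2 genes were lost when some single libraries were left out. So were the neuron calls of Nkx6-1 and Nkx2-2.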

How the results depend on the processing

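Of 91 called differences of the members, 70 kept direction and call in every alternative and none turned. Of the 31 between genotypes, 22 did. The replicate block over 24 samples left 119 of 120 member values on their side of the threshold (exception: Pax6, -0.56 from WT NPCs to PSA-NCAM+ cells, FDR = 0.039 by edgeR). With upper-quartile scaling the WT neuron minus NPC values of Dbx2 and Olig3, neither called, turned to -0.19 and -0.12. A minimum 2-fold change left 2281, 3569, 3793 and 3365 genes called between genotypes from ESCs to neurons, 5137, 1971 and 8760 for the WT steps, 5165, 2402 and 7138 for the slow/slow steps, and 1908 and 4938 for the interactions. Fits of only the samples compared called 5 members and 3686 genes between PSA-NCAM+ genotypes, 4 members and 2525 genes from slow/slow NPCs to PSA-NCAM+ cells, and 7534 genes for the first interaction. With a replicate block within the 6 PSA-NCAM+ samples, chosen after seeing the data, 5 members were called. Without both PSA-NCAM+ replicates 1, also chosen after seeing the data, 7 members were called from WT NPCs to PSA-NCAM+ cells and the Olig3 value turned to 0.23.

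Leaving out 1 library at a time, the members called by the ESC to NPC interaction ranged from 3 to 7. Values that were not called and changed sign were Olig2 between ESC genotypes (-1.32 to 3.16), Dbx1 (-0.32 to 1.18) and Olig2 (-0.19 to 4.30) from WT ESCs to NPCs, Nkx2-2 (-1.74 to 0.94) and Olig2 (-1.09 to 3.39) in the ESC to NPC interaction, Pax3 (-0.15 to 0.59) and Olig3 (-0.38 to 0.24) from WT NPCs to PSA-NCAM+ cells, Olig3 from WT NPCs to neurons (-0.067 to 0.28), Dbx1 in the NPC to neuron interaction (-0.31 to 1.11), and Pax6 from slow/slow NPCs to PSA-NCAM+ cells (-0.088 to 0.42). The range of Pax3 includes a call (0.59 without WT PSA-NCAM+ replicate 1), as does that of Pax6 (0.42 without slow/slow PSA-NCAM+ replicate 1). The cause was not tested. Several of these groups hold under 10 counts, where depth limits the value. The exon 5a difference in neurons ranged from 1.93 to 6.76 percentage points without 1 library.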
